A study of Mus musculus with 6 samples.

Results

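The genes described here are 7 subunits and pumps that sit in the plasma membrane, namely the sodium pump beta subunits Atp1b1, Atp1b2 and Atp1b3 and the calcium pumps Atp2b1, Atp2b2, Atp2b3 and Atp2b4. They were chosen by symbol from the 24060 genes of the count table, and all 7 passed the filter on low counts that left 16449 genes for testing. RNA-seq was made from retinal ganglion cells (RGCs), the neurons whose axons form the optic nerve, of C57BL/6 mice at embryonic day 18 (E18) and postnatal day 5 (P5), with no genetic change or treatment named at either age. The cells came from papain-dissociated retinas, from which macrophages were first removed with antibodies and RGCs then held on dishes through their surface protein Thy1 (CD90). There were 3 E18 libraries, numbered 1, 3 and 4, and 3 P5 libraries, numbered 6, 8 and 9. The labels do not say whether the libraries of one age came from separate animals or litters, so p-values rest on the spread between these libraries only. The test used pools part of that spread over genes, so it is not each gene's own spread alone. The comparison asks how RGC expression differs between an age of rapid axon growth and an age after that growth capacity has declined.

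The sodium pump (Na,K-ATPase) spends ATP to carry sodium out of the cell and potassium in, and so keeps the gradients that neurons use for electrical signalling. Its catalytic alpha subunit needs a glycosylated beta subunit to fold and to reach the membrane, and a small FXYD protein can tune the assembled pump. Plasma membrane calcium pumps (PMCAs) have a single catalytic chain and are switched on by calmodulin. They expel calcium and work beside the sodium-calcium exchangers, which draw on the sodium gradient.

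The 3 beta subunit genes and the 4 pump genes were located in the GENCODE annotation of mm10. Atp1b1 (chr1:164437109-164458355), Atp1b2 (chr11:69599736-69605942) and Atp1b3 (chr9:96332655-96364442) lie on the minus strand. Atp2b1 (chr10:98914406-99026143) and Atp2b3 (chrX:73503086-73571005) lie on the plus strand, whereas Atp2b2 (chr6:113743831-114042613) and Atp2b4 (chr1:133699457-133801041) lie on the minus strand. The 3′ exons of Atp1b1 share 575 of the gene's 3081 exon bases with Nme7 on the opposite strand, and the counting is not stated to use strand.

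RefSeq promoter windows (GRCm38.p6) were found for 5 of the 7 genes, in 9 windows, and not for Atp1b2 and Atp2b3. The stretches upstream of the start are printed for Atp1b1 and Atp1b3, since the first had the largest difference between the ages and the second had none that passed the test. Each runs 5′ to 3′ on the minus strand, at chr1:164458356-164458605 for Atp1b1 and chr9:96364443-96364681 for Atp1b3. For Atp1b3, for which RefSeq gives 2 starts, the stretch shown is that of the upstream start. Capitals mark the GC box (GGGCGG) and the CCAAT box (CCAAT), on either strand.
Atp1b1: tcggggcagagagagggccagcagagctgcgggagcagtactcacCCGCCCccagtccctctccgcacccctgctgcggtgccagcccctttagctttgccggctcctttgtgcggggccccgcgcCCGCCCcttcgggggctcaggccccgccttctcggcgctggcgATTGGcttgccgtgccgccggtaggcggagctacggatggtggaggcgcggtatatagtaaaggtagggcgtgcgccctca
Atp1b3: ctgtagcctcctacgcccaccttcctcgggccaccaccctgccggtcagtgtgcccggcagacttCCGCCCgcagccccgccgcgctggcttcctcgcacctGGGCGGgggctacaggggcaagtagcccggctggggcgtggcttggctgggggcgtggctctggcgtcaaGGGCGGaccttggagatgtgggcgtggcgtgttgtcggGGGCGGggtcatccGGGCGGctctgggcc
The Atp1b1 window held 2 GC boxes and 1 CCAAT box, and the Atp1b3 window shown held 5 GC boxes and no CCAAT box. Of 32851 RefSeq windows of the same 250 bases, 32.7% held a GC box and 33.8% a CCAAT box. Neither window shown held TATAAA (12.4% of all windows), CCGGAAG, the ETS core bound by Elk-1 (6.91%), or CAGCACC, from the element bound by REST (5.73%). The window of the other Atp1b3 start (chr9:96363716-96363965) held 1 CCGGAAG and none of the other motifs. All 3 were rich in G and C, at 70.4% for Atp1b1 and 73.6% and 76.8% for Atp1b3, against a median of 52.4% over all windows. A matched motif describes the sequence and is not evidence that a factor binds there.

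Between 81213639 and 114512853 reads were counted on genes per library. Values are CPM, reads counted on a gene scaled to a common library size with TMM factors, and fold changes are log2 of E18 over P5, so that a negative value is higher at P5. Markers of RGCs summed to 9550 to 11270 CPM at E18 and 9871 to 10970 CPM at P5, with 4 of 15 higher and 6 of 15 lower at E18. Libraries of E18 were not alike in other cell types. Dividing-cell markers summed to 263.2, 76.8 and 27.6 CPM in E18 replicates 1, 3 and 4, against 19.0 to 33.2 CPM at P5, with 8 of 12 higher at E18. Amacrine and horizontal cell markers summed to 131.9, 241.3 and 34.5 CPM in the same E18 libraries and 37.9 to 51.0 CPM at P5, with 5 of 10 tested higher at E18. Endothelial and pericyte markers stood at 72.6, 64.5 and 16.5 CPM at E18 and 14.7 to 17.8 CPM at P5, although 3 of 7 tested were lower and 1 higher at E18. Retinal progenitor markers summed to 636.5 to 867.5 CPM at E18 and 509.7 to 641.0 CPM at P5, with 7 of 12 higher at E18. The remaining lists were bipolar cells (47.5 to 55.8 CPM at E18, 70.1 to 99.8 CPM at P5, with 3 of 6 tested lower and 1 higher at E18), photoreceptors (4.68 to 13.0 CPM at E18, 4.77 to 6.88 CPM at P5), oligodendrocytes (93.9 to 94.4 and 56.4 to 75.5 CPM), microglia (4.65 to 5.16 and 3.27 to 3.66 CPM) and red blood cells (up to 1.82 CPM, with Hba-a1, Hbb-bs, Hbb-bt and Hbb-b1 at 0). Of the tested markers, 3 of 11 for photoreceptors, 1 of 7 for oligodendrocytes and 1 of 8 for microglia were higher at E18, and 2, 2 and 0 were lower. Over all 16449 tested genes, 3426 were called as higher and 3709 as lower at E18. The part of these other cells in the results was not tested, and fewer cells of a type cannot be told apart from less RNA per cell.

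Of the 7 genes, 6 were lower at E18 than at P5 and none was higher, in edgeR's quasi-likelihood test after Benjamini-Hochberg adjustment across the tested genes. The same test called 43.4% of all tested genes in either direction and 22.5% as lower at E18. The median log2 fold change of the 7 genes was -0.81, against 0.00 over all tested genes. In 6 of the genes every E18 library lay below every P5 library, as it did in 28.5% of tested genes. Counting either direction, the ages did not overlap in any of the 7 genes, and they did not overlap in 56.1% of tested genes. Leaving out 1 library at a time called 4 to 6 of the genes, with 4 called without E18 replicate 1, E18 replicate 3 or P5 replicate 9, and 5 without E18 replicate 4. Calls over all genes changed as well. With every library, 7135 of 16449 tested genes were called. Without E18 replicate 1, 3 or 4 it was 5110 of 16741, 4575 of 16775 or 5861 of 16802. Without P5 replicate 6, 8 or 9 it was 5589 of 16716, 8796 of 16761 or 5384 of 16683. The plot of each gene by library shows the separation of the ages and the wide spread of P5 for Atp1b1.

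**Figure D1:**
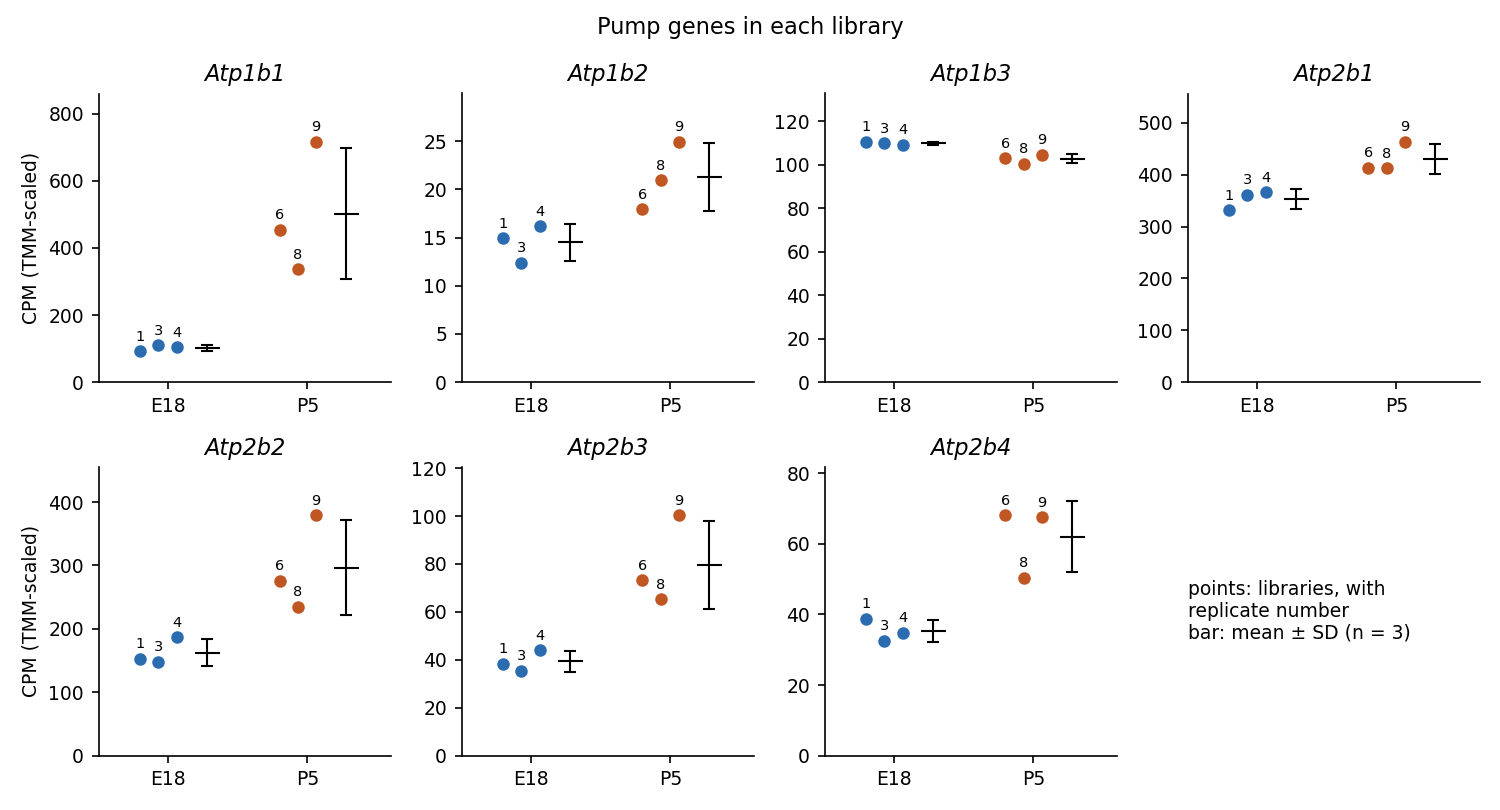
TMM-scaled CPM (y axis, from 0) of each of the 7 genes in the 3 E18 and 3 P5 libraries, with the replicate number over each point and the mean ± SD (n = 3) as a black bar. Atp1b1 runs from 92.7 to 110.3 CPM at E18 and from 336.0 to 716.8 CPM at P5, while Atp1b3 stays between 100.5 and 110.6 CPM throughout.

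Atp1b1 encodes the beta 1 subunit, the widespread partner of the sodium pump in neurons and epithelia. It stood at 92.7, 110.3 and 103.4 CPM in E18 replicates 1, 3 and 4 and at 454.4, 336.0 and 716.8 CPM in P5 replicates 6, 8 and 9. All P5 libraries were well above all E18 libraries, and P5 replicate 9 held 2.13 times the level of P5 replicate 8. The means were 102.1 ± 8.85 CPM in E18 cells and 502.4 ± 194.9 CPM in P5 cells (mean ± SD, n = 3). Atp1b1 was thus 4.92-fold higher at P5, with a log2 fold change of -2.30 (SE 0.25, 95% interval -2.86 to -1.74, adjusted p = 0.000367 in edgeR). Only 2.11% of tested genes had a more negative fold change. Leaving out 1 library at a time gave log2 fold changes from -2.54 to -1.95, all past the threshold. Nme7, which overlaps it, stood at 16.7 to 19.2 CPM at E18 and 19.3 to 20.0 CPM at P5.

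Atp1b3, the beta 3 subunit, was the 1 gene of the 7 that did not pass the test. Its values were 110.6, 109.9 and 109.1 CPM at E18 and 102.9, 100.5 and 104.6 CPM at P5. Every E18 library lay slightly above every P5 library, and the libraries of one age were close together, with a coefficient of variation of 0.67% at E18 and 2.01% at P5. The median coefficient of variation over all tested genes was 7.94% at E18 and 14.8% at P5. Its log2 fold change was 0.10 (SE 0.08, adjusted p = 0.332 in edgeR) with a 95% interval of -0.08 to 0.27. The SE and p-value draw on the spread of other genes too, so they do not reflect its own spread alone.

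Atp1b2 encodes the beta 2 subunit, also known as the adhesion molecule on glia, which is made by glia as well as neurons. Its levels were low, at 14.9, 12.4 and 16.2 CPM at E18 and 17.96, 21.0 and 25.0 CPM at P5. The ages did not overlap, but the gap between the highest E18 and the lowest P5 library was small beside the spread within each age. Atp1b2 was 1.47-fold higher at P5 (log2 fold change -0.56, SE 0.15, 95% interval -0.91 to -0.20, adjusted p = 0.0197 in edgeR). The call was lost without E18 replicate 1 (adjusted p = 0.0527), E18 replicate 3 (0.0834) or P5 replicate 9 (0.0632), at log2 fold changes of -0.57, -0.45 and -0.43. Markers of Müller glia and astrocytes summed to 405.0 to 451.4 CPM at E18 and 276.4 to 327.7 CPM at P5. Of 11 tested, 3 were higher and 1 lower at E18, against 43.4% of all tested genes called in either direction. Most of each sum was Glul, at 312.7 to 326.0 CPM at E18 and 230.4 to 272.9 CPM at P5. Slc1a3, not called, was uneven, at 16.2, 2.80 and 0.47 CPM in E18 replicates 1, 3 and 4 and 1.11 to 1.78 CPM at P5. Both were named after their values were seen. The part of glia in the Atp1b2 result was not tested.

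Atp2b1 encodes PMCA1, the broadly expressed calcium pump of most cells. It had the most reads of the 4 pumps, at 332.2, 361.6 and 366.8 CPM at E18 and 413.4, 413.2 and 464.0 CPM at P5. The ages did not overlap, and E18 replicate 1 was the lowest and P5 replicate 9 the highest library. Its level was 1.22-fold higher at P5 (log2 fold change -0.28, SE 0.09, 95% interval -0.48 to -0.08, adjusted p = 0.0304 in edgeR). Without E18 replicate 1, E18 replicate 3, E18 replicate 4 or P5 replicate 9 the adjusted p was 0.126, 0.0867, 0.0578 or 0.0765 in edgeR, so 4 of the 6 fits that left out a library lost the call.

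Atp2b2 encodes PMCA2, a fast pump of neurons and of the hair cells of the inner ear. It read 152.9, 148.0 and 186.8 CPM at E18 and 275.9, 235.0 and 379.4 CPM at P5. Every P5 library exceeded the highest E18 library, E18 replicate 4, and P5 replicate 9 stood at 1.61 times the level of P5 replicate 8. The gene was 1.82-fold higher at P5 (log2 fold change -0.87, SE 0.17, 95% interval -1.26 to -0.47, adjusted p = 0.00491 in edgeR).

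Atp2b3 encodes PMCA3, a pump of restricted expression that is found mainly in the brain. Its E18 libraries held 38.4, 35.4 and 44.1 CPM and its P5 libraries 73.1, 65.2 and 100.4 CPM. The pattern among libraries followed that of Atp2b2, with E18 replicate 4 the highest of its age, P5 replicate 9 the highest and P5 replicate 8 the lowest of theirs. Its level was 2.02-fold higher at P5 (log2 fold change -1.02, SE 0.16, 95% interval -1.39 to -0.64, adjusted p = 0.00192 in edgeR).

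Atp2b4 encodes PMCA4, a widely expressed pump that is known for its part in sperm motility. It was measured at 38.8, 32.5 and 34.8 CPM at E18 and 68.2, 50.4 and 67.6 CPM at P5. The ages were apart, and here P5 replicate 6 was marginally above P5 replicate 9. The difference was 1.75-fold in favour of P5 (log2 fold change -0.81, SE 0.14, 95% interval -1.12 to -0.50, adjusted p = 0.00222 in edgeR). It shares 6 exon bases with the microRNA gene Mir6903, which had 1 count in each of 2 libraries. With any 1 library left out, Atp2b2, Atp2b3 and Atp2b4 stayed past the threshold, at adjusted p of at most 0.0244, 0.0117 and 0.0145 in edgeR.

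The 95% intervals of Atp2b2, Atp2b3 and Atp2b4 overlapped each other, and the 3 were not tested against each other for size of change. Among the beta subunits the interval of Atp1b1 lay apart from those of Atp1b2 and Atp1b3. The plot of fold changes sets them beside the other named genes of the pathway.

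**Figure D2:**
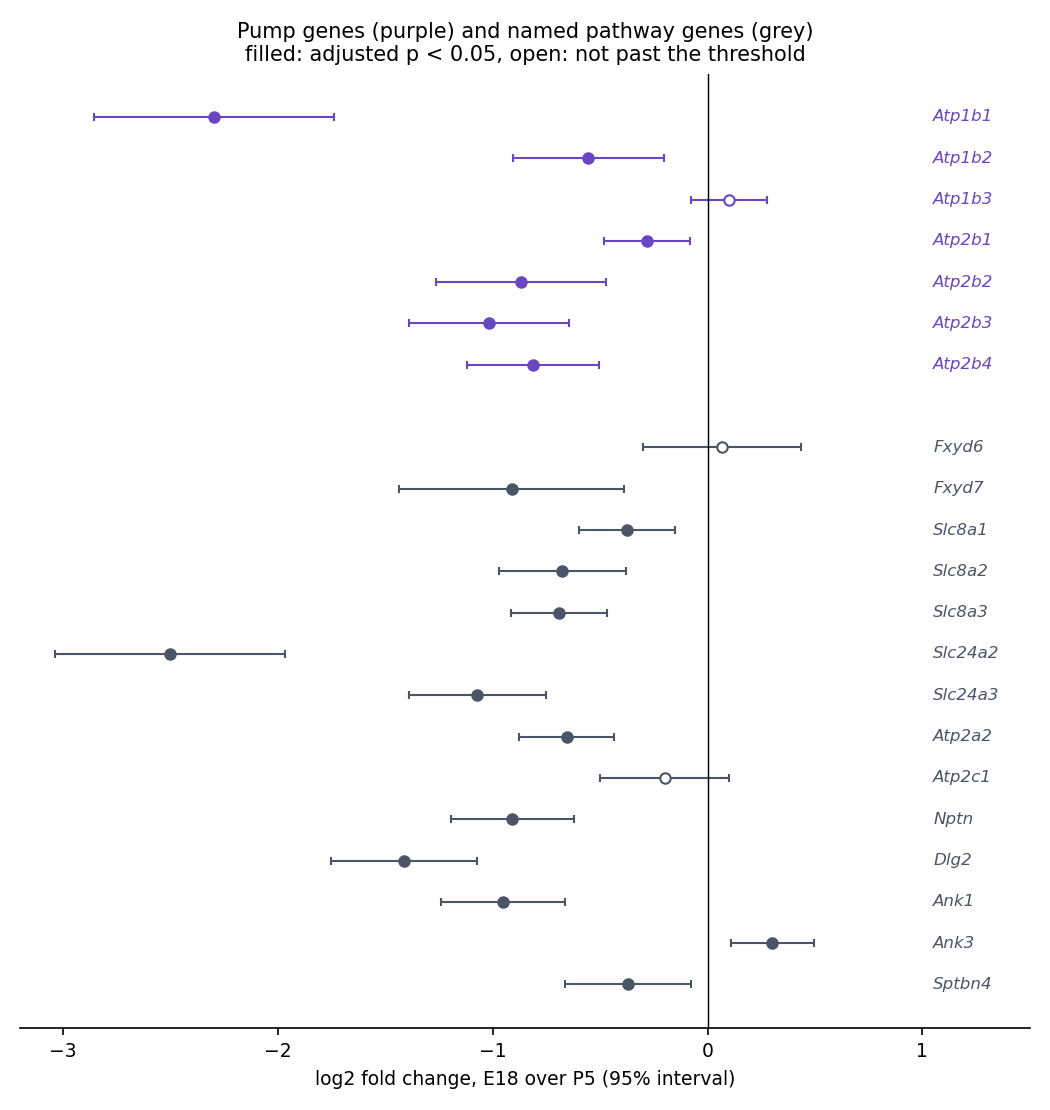
Log2 fold change of E18 over P5 (x axis) with its 95% interval for the 7 genes (purple) and 14 named genes of related pathways (grey), filled where the adjusted p of edgeR is under 0.05. Most points lie left of 0, higher at P5, with Atp1b1 at -2.30 and Slc24a2 at -2.50 farthest out, and Ank3 at 0.30 is the 1 filled point on the right.

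Levels of different genes were compared per kilobase of exon. At E18, Atp1b3 was the highest of the 7 at 45.99 CPM per kb, followed by Atp1b1 (33.2), Atp2b1 (23.2), Atp2b2 (12.9), Atp2b3 (8.16), Atp1b2 (3.55) and Atp2b4 (2.89). Only the libraries of the last pair, Atp1b2 and Atp2b4, overlapped. At P5, Atp1b1 stood first at 163.1 CPM per kb, ahead of Atp1b3 (43.0), Atp2b1 (28.3), Atp2b2 (23.5), Atp2b3 (16.5), Atp1b2 (5.21) and Atp2b4 (5.07). Neighbours overlapped there for Atp2b1 with Atp2b2, Atp2b2 with Atp2b3, and Atp1b2 with Atp2b4. The order depends on the length used. Over coding length, Atp1b2 moved above Atp2b3 at E18 (15.8 against 10.1 CPM per kb). It did so at P5 too, with overlapping libraries (23.2 against 20.4 CPM per kb). The length of the listed RefSeq transcript was a choice added after the data were seen. With it, Atp2b1 moved above Atp1b1 at E18 (49.6 against 39.6 CPM per kb) and above Atp1b3 at P5 (60.3 against 51.5 CPM per kb). Atp2b4 also moved above Atp1b2 at P5, with overlapping libraries (7.66 against 7.49 CPM per kb). Over each length Atp1b3 remained first at E18 and Atp1b1 first at P5.

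Within the beta subunits, the leading gene therefore changed between the ages. Atp1b1 made up 37.6%, 42.2% and 40.4% of the beta total per kb in E18 replicates 1, 3 and 4, and 75.7%, 69.8% and 82.4% in P5 replicates 6, 8 and 9. Atp1b3 took 57.8%, 54.2% and 54.9% at E18 and 22.1%, 26.9% and 15.5% at P5. The share of Atp1b3 was the larger in all 3 E18 libraries and that of Atp1b1 in all 3 P5 libraries. The lead of Atp1b3 at E18 rests on the length scaling in 1 library, since without it E18 replicate 3 held 47.4% Atp1b1 and 47.3% Atp1b3. Atp1b2 was a minor part throughout, with 4.30% ± 0.63 at E18 and 2.57% ± 0.62 at P5 (mean ± SD, n = 3).

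Within the calcium pumps the composition moved less. Atp2b1 held 49.3% ± 2.57 of the per-kb total at E18 and 38.9% ± 3.86 at P5 (mean ± SD, n = 3). Atp2b2 went from 27.3% ± 1.68 to 31.8% ± 2.64 and Atp2b3 from 17.3% ± 0.98 to 22.3% ± 1.41. The libraries of the ages did not overlap for these 3 shares, while they did for Atp2b4, at 6.15% ± 0.77 and 6.94% ± 0.90. An exact two-sided permutation test gave p = 0.1 for the 6 shares that did not overlap, the smallest that 3 against 3 libraries can give, and p = 0.4 for Atp2b4. Adjusted over the 7 shares, the exact permutation p was 0.117 and 0.4. With so few libraries no share could have passed the threshold, so this test cannot decide. The shares of a family also add up to its total and are not separate tests. The plot of shares shows both families side by side.

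**Figure D3:**
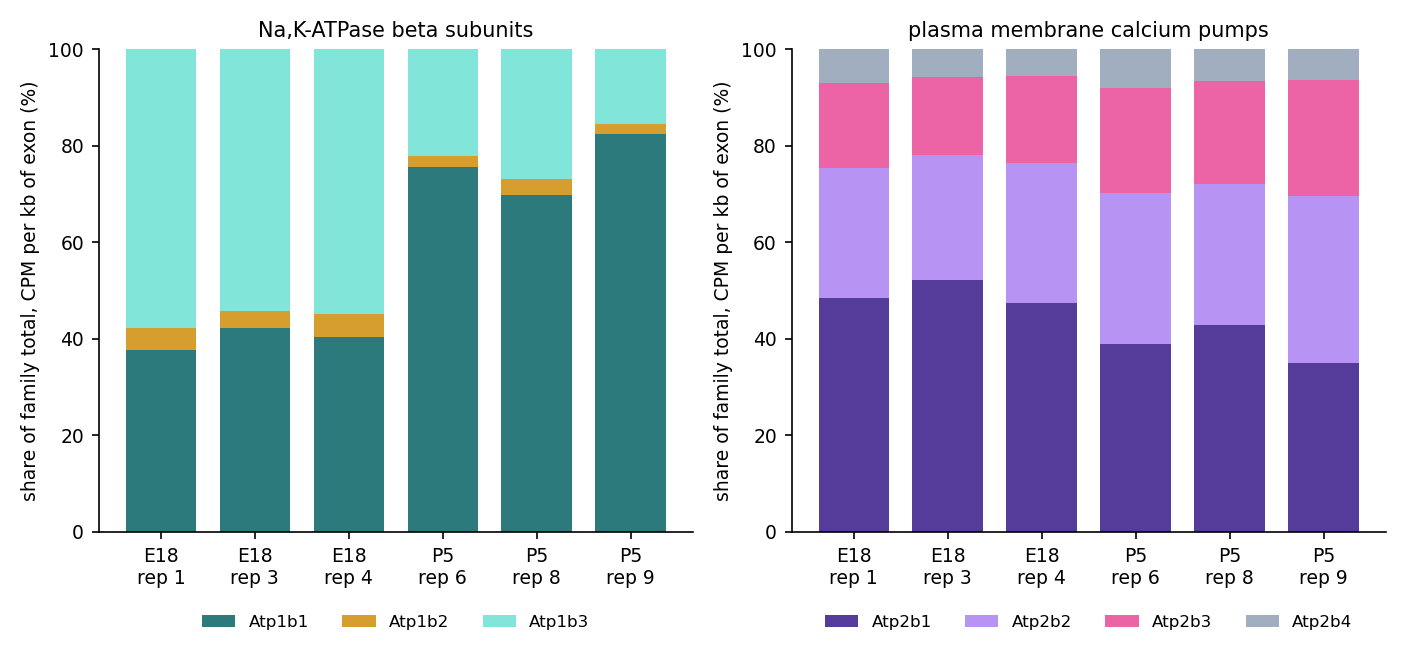
Share of each gene in its family's total (y axis, percent of CPM per kb of exon) in each library, for the 3 beta subunits (left) and the 4 calcium pumps (right). Atp1b1 holds 37.6% to 42.2% of the beta total at E18 and 69.8% to 82.4% at P5, and Atp2b1 is the largest of the calcium pumps in every library.

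Summed per kb of exon, the beta subunits went from 82.7 ± 2.44 to 211.2 ± 64.7 CPM per kb and the calcium pumps from 47.2 ± 3.25 to 73.4 ± 12.2 CPM per kb (mean ± SD, n = 3). Each P5 total lay above each E18 total in both families, and these totals were not tested.

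The P5 libraries differed among themselves in the same order for most of the 7 genes. Among the 6 genes called, P5 replicate 9 was the highest P5 library in 5 and P5 replicate 8 the lowest in 5. The same order was common elsewhere, since P5 replicate 9 was the highest in 62.7%, and P5 replicate 8 the lowest in 65.5%, of all 3709 genes called as lower at E18. Over all tested genes these shares were 33.2% and 39.2%. Thy1, the protein used for purification, followed the order too, at 212.4, 217.2 and 312.0 CPM at E18 and 499.5, 469.2 and 690.1 CPM at P5. Its part in the pump results was not tested. On the log2 scale Atp1b1 lay 0.58 above its P5 mean in P5 replicate 9 and 0.51 below it in P5 replicate 8, the widest deviations of the 7 genes in the plot of libraries within an age. Atp1b3 lay closest to its age mean, at most 0.031 away.

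**Figure D4:**
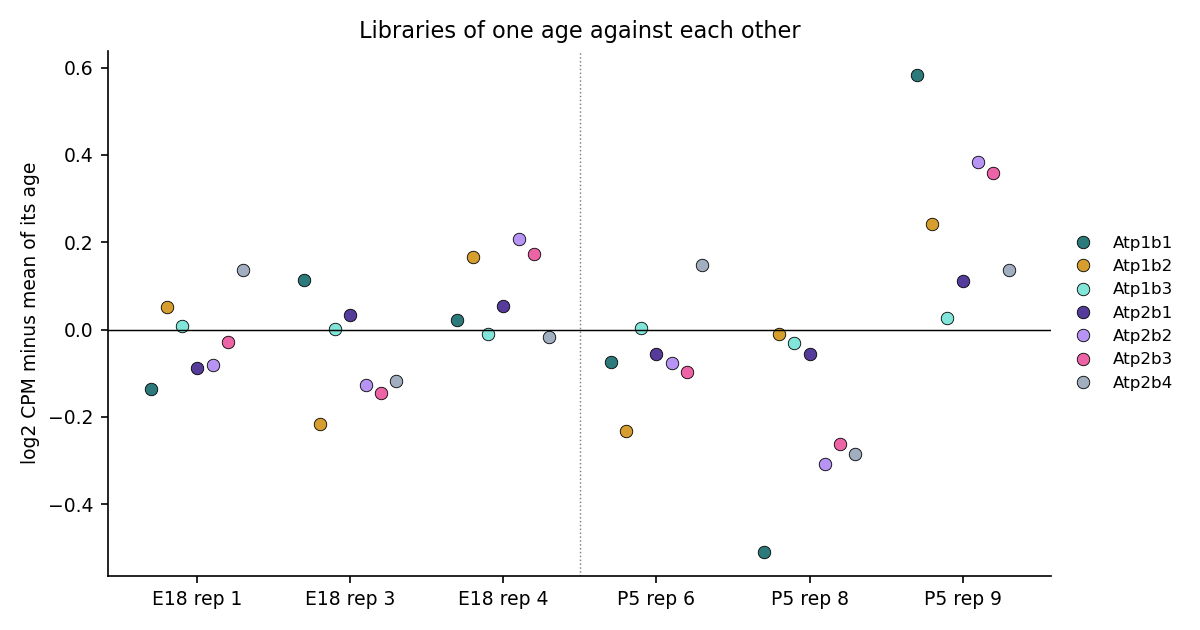
Deviation of each of the 7 genes from the mean of its age (y axis, log2 CPM) in each of the 6 libraries (x axis), with E18 left and P5 right of the dotted line. P5 replicate 9 lies above 0 for all genes, P5 replicate 8 below 0 for all genes, and Atp1b3 stays within 0.031 of 0 in every library.

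Of 7 genes for FXYD proteins, which tune the sodium pump, 6 were tested, 2 were lower at E18 and none was higher. Over all tested genes, 22.5% were called as lower at E18. Fxyd7, a brain FXYD protein, read 30.3, 27.6 and 43.7 CPM at E18 and 59.6, 47.6 and 83.9 CPM at P5. All P5 libraries lay above all E18 libraries, and Fxyd7 passed the test (log2 fold change -0.91, SE 0.23, adjusted p = 0.0132 in edgeR), a call lost without E18 replicate 3 (adjusted p = 0.0535 in edgeR). Fxyd6 did not, with overlapping ages at 131.4 to 152.6 CPM and 100.9 to 163.4 CPM (0.07, SE 0.16, adjusted p = 0.763 in edgeR). Fxyd2, named after its values were seen, was low at both ages, with 0.78 to 0.95 CPM at E18 and 1.84 to 2.30 CPM at P5, and it passed the test (-1.23, SE 0.22, adjusted p = 0.00308 in edgeR). Fxyd1, Fxyd4 and Fxyd5, also under 10 CPM, did not pass, with adjusted p of 0.658, 0.686 and 0.0849 in edgeR. Fxyd5 was called as lower at E18 by DESeq2 (adjusted p = 0.0433) and by edgeR without E18 replicate 4 (0.0177). Fxyd3 and the beta relative Atp1b4 did not pass the filter on low counts.

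Other transporters take calcium out of the cytosol, across the plasma membrane or into stores. Of 14 exchangers and store pumps listed, 12 were tested, 7 were lower and 2 higher at E18, and the median log2 fold change was -0.67. Among all tested genes, the share called as lower at E18 was 22.5%. The sodium-calcium exchangers Slc8a1, Slc8a2 and Slc8a3 all passed, at -0.37 (SE 0.10), -0.68 (SE 0.13) and -0.69 (SE 0.10), with adjusted p of 0.0156, 0.00405 and 0.00115 in edgeR. The Slc8a1 call was lost without E18 replicate 1 (adjusted p = 0.0638) or E18 replicate 4 (0.0533) in edgeR. Slc24a2, a potassium-dependent exchanger of photoreceptors and neurons, had 19.0, 18.11 and 14.6 CPM at E18 and 93.0, 67.1 and 132.8 CPM at P5. It was higher at P5 (log2 fold change -2.50, SE 0.24, adjusted p = 0.000243 in edgeR), with P5 replicate 9 highest and P5 replicate 8 lowest as for Atp1b1. Slc24a3 (-1.07, SE 0.14, adjusted p = 0.000837) and Atp2a2, the SERCA2 pump that fills the endoplasmic reticulum (-0.66, SE 0.10, adjusted p = 0.00137), passed the same edgeR test. Atp2c1, a pump of the Golgi, did not, at 254.1 to 270.6 CPM at E18 and 251.4 to 366.5 CPM at P5 (-0.20, SE 0.13, adjusted p = 0.250 in edgeR), though it was called without P5 replicate 8 (adjusted p = 0.0329 in edgeR). The remaining called genes, named after their values were seen, were Slc24a4, lower at E18, and Slc24a5 and Atp2a1, higher at E18, all under 10 CPM. Slc24a5 lost its call under both other filters on low counts and in 5 of the 6 fits that left out a library, all but that without P5 replicate 8.

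Binding partners of the calcium pumps include scaffold proteins and neuroplastin. Of 12 tested, 7 were lower at E18 and none higher, with a median log2 fold change of -0.53. Of all tested genes, 22.5% were called as lower at E18. Nptn, the neuroplastin that the pumps assemble with, was at 151.8 to 181.9 and 264.0 to 357.8 CPM (-0.91, SE 0.13, adjusted p = 0.00100 in edgeR), and Dlg2, a scaffold protein, at 157.8 to 202.8 and 383.6 to 544.1 CPM (-1.41, SE 0.15, adjusted p = 0.000362 in edgeR). Neither overlapped between the ages. The 5 partners not called included Bsg (0.04, SE 0.13, adjusted p = 0.84) and Dlg4 (-0.03, SE 0.10, adjusted p = 0.83) by edgeR, with overlapping ages. They also included Dlg3 (-0.25, SE 0.09, adjusted p = 0.0548) and Cask (-0.19, SE 0.08, adjusted p = 0.0988) by edgeR, whose ages did not overlap. By edgeR, Dlg3 was called lower at E18 with a filter on a mean of 1 CPM (adjusted p = 0.0382) and without P5 replicate 6 (0.0248). Cask was called lower at E18 without P5 replicate 8 (adjusted p = 0.0304 in edgeR). All were named after their values were seen. A further partner, Slc9a3r1, named after its values were seen, was low. It had 1.34, 0.59 and 0.08 CPM in E18 replicates 1, 3 and 4 and 0.16 to 0.27 CPM at P5. E18 replicate 4 thus lay below every P5 library. Slc9a3r1 was called higher at E18 by DESeq2 (adjusted p = 0.0493) and by edgeR without E18 replicate 4 (0.00719). With all libraries its adjusted p was 0.103 in edgeR.

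Ankyrins and spectrins anchor the sodium pump and channels to the membrane skeleton. Of 7 tested, 2 were lower and 1 was higher at E18, with a median log2 fold change of -0.19. Ank1 was higher at P5 (-0.95, SE 0.13, adjusted p = 0.000895 in edgeR), as was Sptbn4 by a small margin (-0.37, SE 0.13, adjusted p = 0.0457 in edgeR). The Sptbn4 call was lost with upper-quartile factors (adjusted p = 0.0546 in edgeR) and in 5 of the 6 fits that left out a library, the exception being P5 replicate 6. Ank3, ankyrin G of the axon initial segment, was higher at E18, with 297.2, 290.0 and 283.2 CPM against 232.0, 221.2 and 252.7 CPM (0.30, SE 0.08, adjusted p = 0.0204 in edgeR). Without E18 replicate 1, E18 replicate 3 or P5 replicate 6 the Ank3 call was lost, with adjusted p of 0.0731, 0.0701 and 0.0684 in edgeR. These lists were read against the 43.4% of tested genes called in either direction and the 22.5% called as lower at E18. No test compared the lists with other genes.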

How the data were processed

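RNA from RGCs of 3 E18 and 3 P5 libraries was sequenced as 100-base paired ends after ribosomal RNA depletion, though the labels name polyA RNA. The submitters' processing notes name CASAVA 1.8.2. Reads were aligned to mm10 with STAR and counted on RefSeq genes with HT-seq, and the authors deposited raw counts per gene and library. Whether counting used strand is not given in the sources used here. The table's normalized counts, fold changes, p-values, false discovery rates and rank were not used. One E18 column carries the numbers 1, 2 and 5 and was taken as replicate 1.

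Counts were scaled by TMM and tested with edgeR 4.0.16 (quasi-likelihood, expression filter, Benjamini-Hochberg, threshold 0.05) in R 4.3.3, and the script was tested on simulated counts. Each SE was derived from that test, as the absolute log2 fold change over the square root of its F statistic. The 95% interval took this SE with a t quantile. Libraries of one age differed by a chi-square of 30.5 to 141.0 per degree of freedom, so none was a copy. Counts on genes totalled 81213639 to 114512853 per library, and the spread between libraries limits the precision. Shares used exon lengths of GENCODE and an exact permutation test (scipy 1.17.1). Named genes were the 7 genes, tested genes of the first 2 pathway lists with a mean of at least 10 CPM, the 3 called genes of largest change in the other lists, and the 3 genes most like each of the 7. Some genes of these lists, and 1 list that rests on them, are not reported here. The genes and lists were chosen with earlier results of these data known. Alternatives were other scalings, the likelihood ratio and exact tests of edgeR, DESeq2 1.42.0, other filters, other lengths and leaving out each library.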

Additional observations from a re-analysis of the deposited data

How the results depend on the processing

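The 7 changes of scaling, test or filter changed no call of the 7 genes, and 6 were called under each. The call nearest the threshold was that of Atp2b1 with no expression filter (adjusted p = 0.0495 in edgeR). Leaving out 1 library gave 4 to 6 calls. Atp1b2 ranged from -0.68 to -0.43 on the log2 scale and lost its call without E18 replicate 1 (adjusted p = 0.0527), E18 replicate 3 (0.0834) or P5 replicate 9 (0.0632), by edgeR. Atp2b1 ranged from -0.33 to -0.23 and lost it without E18 replicate 1 (adjusted p = 0.126), E18 replicate 3 (0.0867), E18 replicate 4 (0.0578) or P5 replicate 9 (0.0765), by edgeR. The number of all tested genes called ranged from 4575 without E18 replicate 3 to 8796 without P5 replicate 8. The difference in the share of Atp1b2, E18 minus P5, was 1.73 percentage points over exon length, 2.63 over coding length and 2.86 with no length. For Atp2b3 it was -5.08, -2.46 and -2.44 percentage points. The lengths themselves differ between these settings. No paired analysis was possible because the ages share no replicate number. Depth does not limit these genes, which had at least 1238 counts in each library. What limits them is the spread between 3 libraries, which the test pools in part over genes.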

Other observations

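Genes whose log2 CPM followed each of the 7 genes most closely were looked up over the 6 libraries, among the 9724 tested genes that averaged 10 CPM or more. The points share the 2 ages, so any gene that differs between them can score high, and r is a description. Atp1b1 was closest to Pcsk2 (r = 0.999), Psd3 (0.999) and Coq5 (0.998), and 140 genes had r over 0.99 with it. Atp2b3 was closest to Slc12a5, the neuronal potassium-chloride cotransporter (r = 0.999), Pde8b (0.999) and Cend1 (0.998), and 98 genes were over 0.99. Atp2b2 was closest to Syt3, Ccdc106 and Caly (r = 0.999 each), with 54 genes over 0.99. For Atp2b4 they were Ndufb6 (r = 0.999) and Ndufs6 (0.997), both subunits of respiratory complex I, and Adk (0.995). For Atp2b1 they were Lamtor1 (r = 0.998), Cdk16 (0.998) and Ppp2r1a (0.996), and for Atp1b2 they were Ube2v1 (0.994), Sptbn4 (0.992) and Csdc2 (0.991). Atp1b3, the 1 gene not called, was closest to Ank3 (r = 0.996), Zc3h4 (0.994) and Parp1 (0.992). The number of genes over 0.99 was 3 for Atp1b2, 4 for Atp1b3, 14 for Atp2b1 and 18 for Atp2b4. Among the 7 genes themselves, the 6 called ones had r of 0.816 to 0.993 with each other, highest for Atp2b2 with Atp2b3, and each had r below 0 with Atp1b3.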
